A study of Mus musculus with 6 samples.

Results

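The actin cytoskeleton and motility machinery was examined here through 45 genes in the RNA of blood neutrophils from tumour-bearing mice. The genes were listed by name for what their products do. No measured value entered the rule, although earlier results of these data were known when the list was made. They are 45 of the 35852 genes to which the transcript tables could be assigned. They comprised 2 actins, 9 subunits of the Arp2/3 complex, 27 proteins that bind actin or drive its assembly, and 7 myosin heavy and light chains. All libraries came from wild-type BALB/C mice that carried orthotopic tumours of 4T1, a mouse mammary carcinoma line, and were bled 4 weeks after implantation. After lysis of red cells, cells with surface Ly6G, a protein of mouse neutrophils, were sorted by their surface Ly6C into Ly6C-high and Ly6C-low cells, with 3 libraries of each. Every mouse carried a tumour, so both groups share that background, and neutrophils of tumour-free mice were not analysed here. Whether each library was made from a different mouse is not said in the labels. The p-values therefore cover only how far these 3 libraries per group spread, and that spread may be technical.

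A neutrophil crawls by building branched actin filaments at its front and contracting its rear. The Arp2/3 complex, switched on by WASP and its relatives, starts new branches on the sides of existing filaments. Profilin and the thymosins hold actin monomers, capping protein ends filament growth, and cofilin and destrin sever and dissolve old filaments. Plastin and filamin tie filaments into bundles and networks, talin and kindlin-3 join them to integrins, and non-muscle myosin II pulls on them. The comparison of Ly6C-high with Ly6C-low cells asked whether the RNA of this machinery differed between neutrophils sorted by surface Ly6C.

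The estimated counts of the libraries summed to between 17192372 and 20973623. The library of Ly6C-low replicate 3 was unlike the rest, scoring 38.02 on the first principal component where the other 5 scored between -19.65 and 3.91. The sorted cell type was checked by summed TPM (transcript abundance per library, corrected for transcript length) of marker lists. The 10 neutrophil markers, with S100a9 and S100a8 the most abundant, summed to between 345266 and 383212 TPM. The sum was higher in every Ly6C-high library than in any Ly6C-low one, with 90.9% of it in those 2 genes. Of the 10 markers 3 were higher in every Ly6C-high library (Ly6g, S100a9 and Mmp8), Csf3r was lower, and 6 overlapped. Eosinophil markers (most abundant Siglecf and Ear2) summed to 21.8 ± 2.46 TPM (SD, n = 3) in Ly6C-high and 41.5 ± 2.39 in Ly6C-low libraries. Basophil and mast cell markers (Mcpt8 and Prss34) summed to 4.32 ± 1.10 and 19.9 ± 14.9, highest in Ly6C-low replicate 3 at 36.3, without which the Ly6C-low mean was 11.7. Monocyte markers (Csf1r and Ccr2) summed to 105 ± 2.36 and 123 ± 8.45, a difference carried by Csf1r, since 4 of the 8 were higher in every Ly6C-high library. For these 3 lists the sums did not overlap between the groups. They overlapped for platelet markers (Pf4 and Ppbp, 16.2 to 40.0 TPM), T and NK cell markers (Cd3d and Nkg7, 26.2 to 47.5), B cell markers (Ighm and Cd79a, 8.29 to 11.8), red cell markers (Hbb-bs and Hba-a2, 685 to 2505) and epithelial markers (Cdh1 and Krt7, 3.22 to 6.48). Most of the T and NK cell sum was Cd3d, with a mean of 33.6 of 36.4 TPM, and the next gene of that list, Nkg7, was at 0.908 TPM. Krt8, Krt18 and Krt14 were at 0 in all 6 libraries. What part these other cells had in the values below was not tested.

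Sequence upstream of the genes was read first, because several actin genes are textbook targets of serum response factor (SRF), which binds a motif called the CArG box. RefSeq start sites on build GRCm38.p6 were matched for 41 of the 45 members, and Actb, Arpc5l, Coro1b and Lsp1 had no entry. Each window ran from 250 bases before to 50 bases after a listed start, and motifs were read on both strands. A CArG box lay in a window of 4 of the 41 members (9.76%), Actg1, Arpc4, Myl6 and Vcl, against 1.63% of all 32851 windows in the table and 1.63% of the 8676 tested genes with an entry. The GC box, GGGCGGG, lay in windows of 22 members (53.7%, against 25.6% of all windows and 50.3% of the tested genes). The TATA box, TATAAA, was found for Myh9 alone (2.44%, against 13.6% of all windows and 9.26% of the tested genes). The core of the site of PU.1, a myeloid transcription factor, searched as GAGGAAGT, was found for Arpc1b alone (2.44%, against 3.2% and 3.95%). None of the 4 printed windows held the TATA letters, so no CArG box below overlapped a TATA box. The 250 bases upstream of the 4 members with a CArG box are printed 5′ to 3′ on the strand of the gene, with the box in capitals. They lie at chr11:120348496-120348745 on the minus strand for Actg1 (box starting at -90 from the start site) and at chr6:113377863-113378112 on the plus strand for Arpc4 (-250). They lie at chr10:128493010-128493259 on the minus strand for Myl6 (-50, at 1 of its 2 listed starts) and at chr14:20929148-20929397 on the plus strand for Vcl (-227).
Actg1: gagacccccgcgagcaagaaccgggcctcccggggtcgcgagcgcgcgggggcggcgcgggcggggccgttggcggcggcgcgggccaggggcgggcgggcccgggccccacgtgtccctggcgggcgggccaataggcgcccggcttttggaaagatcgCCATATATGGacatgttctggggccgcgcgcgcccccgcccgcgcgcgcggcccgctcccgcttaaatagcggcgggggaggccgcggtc
Arpc4: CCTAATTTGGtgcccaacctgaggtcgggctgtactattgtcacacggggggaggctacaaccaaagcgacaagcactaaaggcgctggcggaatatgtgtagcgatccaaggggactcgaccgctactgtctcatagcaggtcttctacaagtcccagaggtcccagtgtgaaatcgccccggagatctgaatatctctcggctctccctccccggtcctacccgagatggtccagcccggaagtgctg
Myl6: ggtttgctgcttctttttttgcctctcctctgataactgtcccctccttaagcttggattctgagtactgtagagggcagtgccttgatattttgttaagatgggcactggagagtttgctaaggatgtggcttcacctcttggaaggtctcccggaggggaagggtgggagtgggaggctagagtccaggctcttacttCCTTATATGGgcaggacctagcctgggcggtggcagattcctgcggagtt
Vcl: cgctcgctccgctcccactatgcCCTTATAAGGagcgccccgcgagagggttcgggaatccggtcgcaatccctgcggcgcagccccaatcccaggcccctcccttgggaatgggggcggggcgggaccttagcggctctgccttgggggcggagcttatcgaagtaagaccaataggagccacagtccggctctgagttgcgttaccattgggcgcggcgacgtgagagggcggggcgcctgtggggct
A match is a description of letters and not a binding site, and the 4 genes encode proteins of different roles: cytoplasmic gamma-actin, a subunit of the Arp2/3 complex, a myosin light chain and an adaptor between integrins and actin. Their log2 fold changes of Ly6C-high over Ly6C-low were 0.18, 0.11, 0.14 and 0.44, and none passed the adjusted test described below.

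By level, several genes of this machinery ranked among the most abundant in the neutrophils. The 45 genes together held 4.85% of all TPM, and their sum ranged from 43571 TPM in Ly6C-low replicate 3 to 50442 TPM in Ly6C-high replicate 2. The share of TPM was 4.92%, 5.04% and 4.84% in Ly6C-high replicates 1, 2 and 3 and 5.01%, 4.94% and 4.36% in Ly6C-low replicates 1, 2 and 3. Only Ly6C-low replicate 3 was below the range of the other libraries by a clear margin, and the groups overlapped. Actin-binding proteins took 55.4% of the members' TPM, the 2 actins 25.1%, the Arp2/3 complex 11.7% and the myosins 7.79%.

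The order of levels was headed by a monomer binder and actin itself. Tmsb4x, which encodes thymosin beta-4, the main buffer of actin monomers, had the highest mean of the members at 12001 TPM and ranked 4 of 20733 genes with any TPM. Actb, cytoplasmic beta-actin, followed at 8888 TPM, and Actg1 at 3292 TPM. Then came the bundling protein L-plastin (Lcp1, 2672 TPM) and profilin (Pfn1, 2570 TPM), whose library ranges of 2050 to 2912 and 2349 to 2721 TPM overlapped. Myl6 (1564 TPM), Lsp1 (1494), Cfl1 (1409), Coro1a (1402), Myl12b (1317) and Actr3 (1096) completed the members above 1000 TPM. The least abundant tested members were Arpc5l at 29.1 TPM and Myo1g at 29.9 TPM, with ranges of 23.4 to 34.3 and 26.2 to 34.1 that overlapped. Evl, which encodes a relative of VASP, had 12, 6 and 6 estimated counts in the Ly6C-high and 2, 7 and 2 in the Ly6C-low libraries and was not tested. The plot of TPM by library shows this range of levels.

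**Figure D1:**
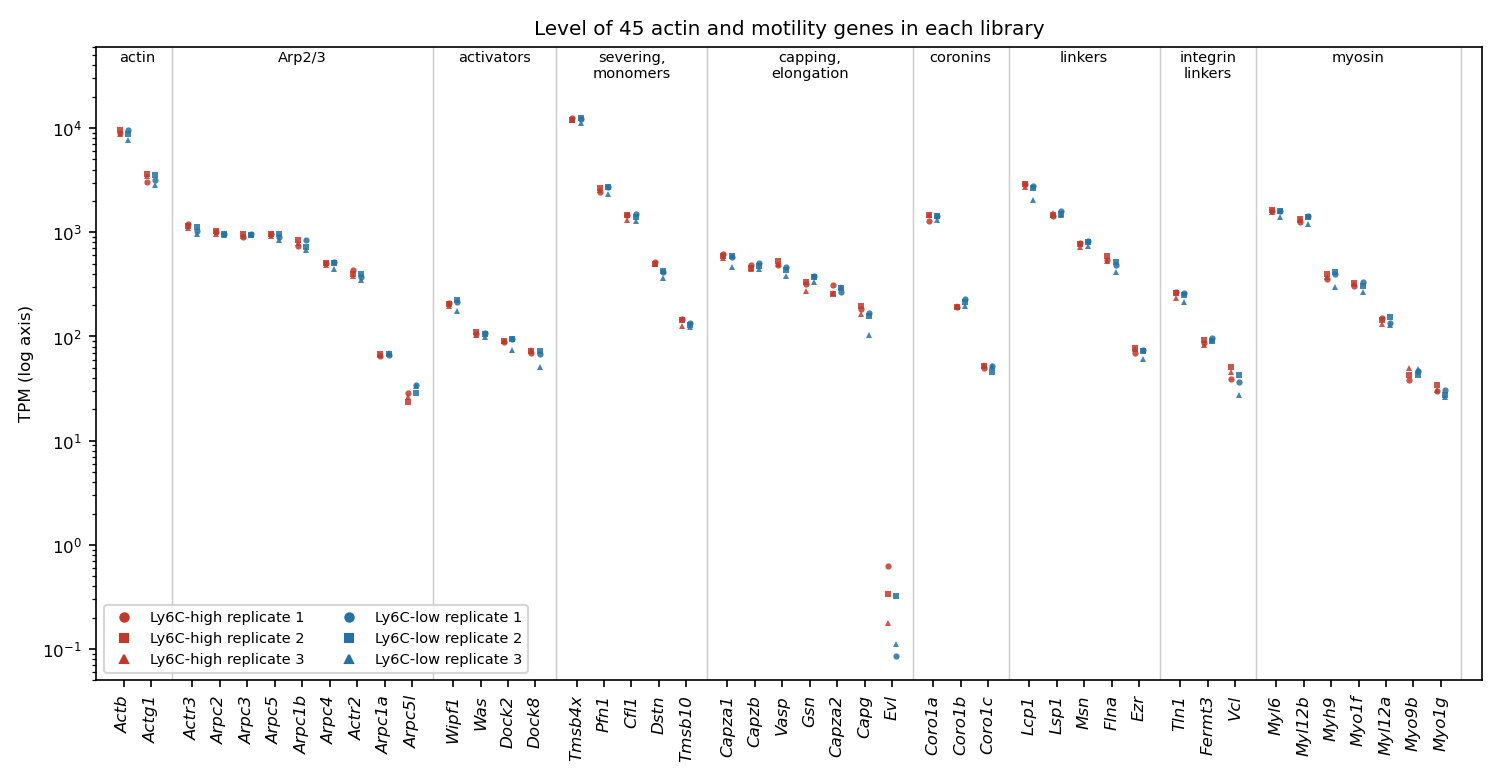
Level of each of the 45 members in each library, as deposited TPM on a log axis, grouped by role, with 1 point per library and colour for the sorted group. Levels run from Evl (mean 0.277 TPM) to Tmsb4x (mean 12001 TPM), and within a gene the points of the groups lie close together compared with the distance between genes.

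Differences between the groups were taken from TMM-scaled counts scaled to library size (CPM) and edgeR's quasi-likelihood test over 11405 genes, with Benjamini-Hochberg adjustment. A log2 fold change is Ly6C-high over Ly6C-low throughout. None of the 44 tested members passed an adjusted p of 0.05, and 4 genes of all tested did (0.0351%). The 4 were Ly6c1 and Ly6c2, which rose, and Alox15 and Fam49a, which fell. Leaving out Ly6C-low replicate 3 gave 21 such genes, and leaving out replicate 2 of either group or replicate 3 of Ly6C-high gave 2. At an unadjusted p under 0.05 there were 8 members: Dstn, Vcl, Vasp, Myo1g, Actr3, Lcp1 and Capg, higher in Ly6C-high, and Arpc5l, lower. Of all genes 14.3% were past that p, and of genes with a mean of at least 100 CPM, where 39 of the 44 members lie, 19.3%, so 8 of 44 (18.2%) was near the background. By direction, 7 members were higher (15.9%), against 6.92% of all genes and 15.6% of those abundant genes, and 1 was lower, against 7.34% of all genes. The 8 became 5 without Ly6C-high replicate 1 and 2 without Ly6C-high replicate 2. The DESeq2 Wald test called 1 member, Dstn, among 126 genes (1.86% of those it adjusted), and limma voom called 0 members among 5 genes (0.0438%). Without the filter on low counts edgeR called 3 members, Dstn, Capg and Vcl, among 438 genes (2.13%). The members' log2 fold changes lay between -0.25 and 0.44. The 95% interval lay within a 1.5-fold difference either way for 39 members (88.6%), against 53.3% of all genes and 88.2% of those abundant genes. The members were thus near the share of genes of like level. It lay within a 2-fold difference for all 44 members, for 8919 of the 11405 genes and for 1723 of the 1760 abundant genes.

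Small differences leaned to one side. Of the 44 members 40 had a log2 fold change above 0, against 49.2% of all genes tested, and their median was 0.13 against -0.00 for all genes. The exceptions were Arpc5l, Gsn, Coro1b and Myo9b. Abundant genes leaned the same way as a class: of the 1760 genes with a mean of at least 100 CPM 73.5% were above 0, with a median of 0.09, against 36 of the 39 members among them and a median of 0.14. All 3 Ly6C-high libraries were above all 3 Ly6C-low libraries for 15 members and below them for Arpc5l. Of all genes 21.1% had groups that did not overlap, 10.3% with Ly6C-high above and 10.9% with Ly6C-high below, while of the genes of at least 100 CPM 28.4% did not overlap and 23.3% had Ly6C-high above. In TPM the whole library sets the scale, and the one-sided count of members without overlap was not seen. Ly6C-high was above Ly6C-low for 3 members (6.82%), Dstn, Vasp and Flna, and below for 3 (6.82%), Arpc5l, Gsn and Coro1b. Of all genes 4.36% were above and 18.1% below on that scale, and of the genes of at least 100 CPM 8.18% and 14%. A lean of the means remained in TPM. The mean was higher in Ly6C-high for 30 of the 44 members (68.2%), against 33.9% of all genes and 48% of the genes of at least 100 CPM. In these bulk libraries, fewer cells of a type and less RNA per cell cannot be told apart.

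**Figure D2:**
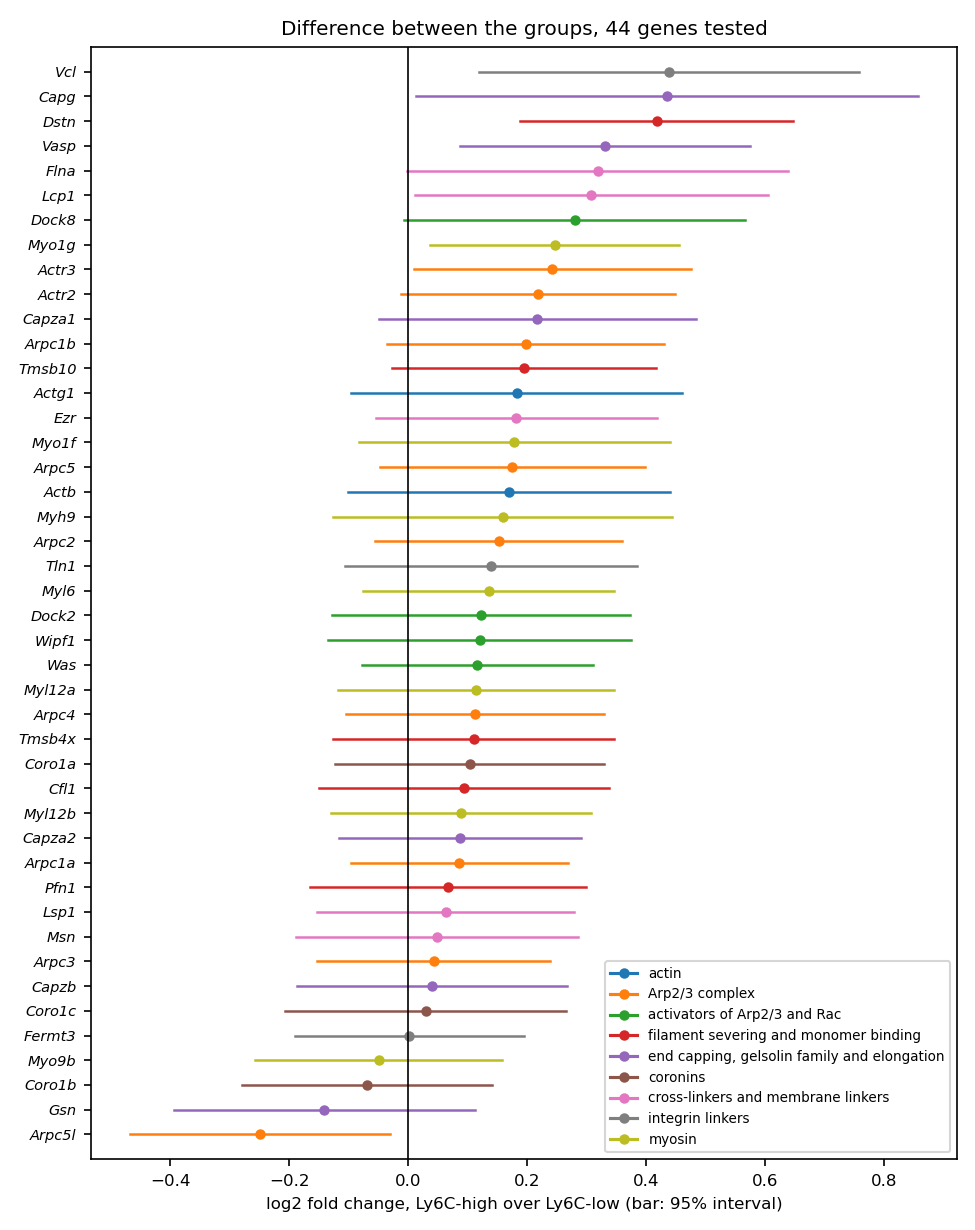
Log2 fold change of Ly6C-high over Ly6C-low for the 44 tested members from edgeR, ordered by fold change and coloured by role. The 95% intervals were derived from its test statistic. The estimates run from -0.25 (Arpc5l) to 0.44 (Vcl), and 40 of the 44 points lie above 0, against 28 with library size alone in place of TMM.

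The lean varied with the scaling and with 1 library. With library size alone in place of TMM, the median of all genes was -0.11, that of the abundant genes -0.01 (46.5% above 0) and that of the members 0.03, with 28 members above 0 and 16 below. The 12 members whose sign turned with that scaling were Arpc1a, Arpc3, Cfl1, Pfn1, Capza2, Capzb, Coro1a, Coro1c, Msn, Lsp1, Fermt3 and Myl12b. Ly6C-low replicate 3 was the lowest of the 6 libraries for 38 of the 44 members (86.4%), against 26.7% of all genes and 58.2% of genes with a mean of at least 100 CPM. The median deviation of the members from their own log2 mean was 0.10, 0.10 and 0.02 in Ly6C-high replicates 1, 2 and 3 and 0.04, -0.02 and -0.22 in Ly6C-low replicates 1, 2 and 3. Without Ly6C-low replicate 3 the members' median log2 fold change was 0.06, with 34 above 0 and 10 below, against 49.0% above 0 among all genes, and the median of the abundant genes was 0.05. At an unadjusted p under 0.05 there were then 6 members higher and 1 lower, against 11.8% of all genes. Leaving out a library cannot undo a separation, so the 15 members stayed above, where of all genes 14.0% were. The number below became 3, with 30.0% of all genes not overlapping in either direction. These shares without that library were not counted for the abundant genes, of which 23.3% were above with all 6 libraries. For 31 of the 44 members the log2 fold change without that library was over 1.5 times smaller or turned sign. The number was between 1 and 6 when any other library was dropped instead. It was not counted for the abundant genes, whose median also fell, from 0.09 to 0.05. Whether this dependence was particular to the members was therefore not tested. The plot of deviations shows the members by library.

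**Figure D3:**
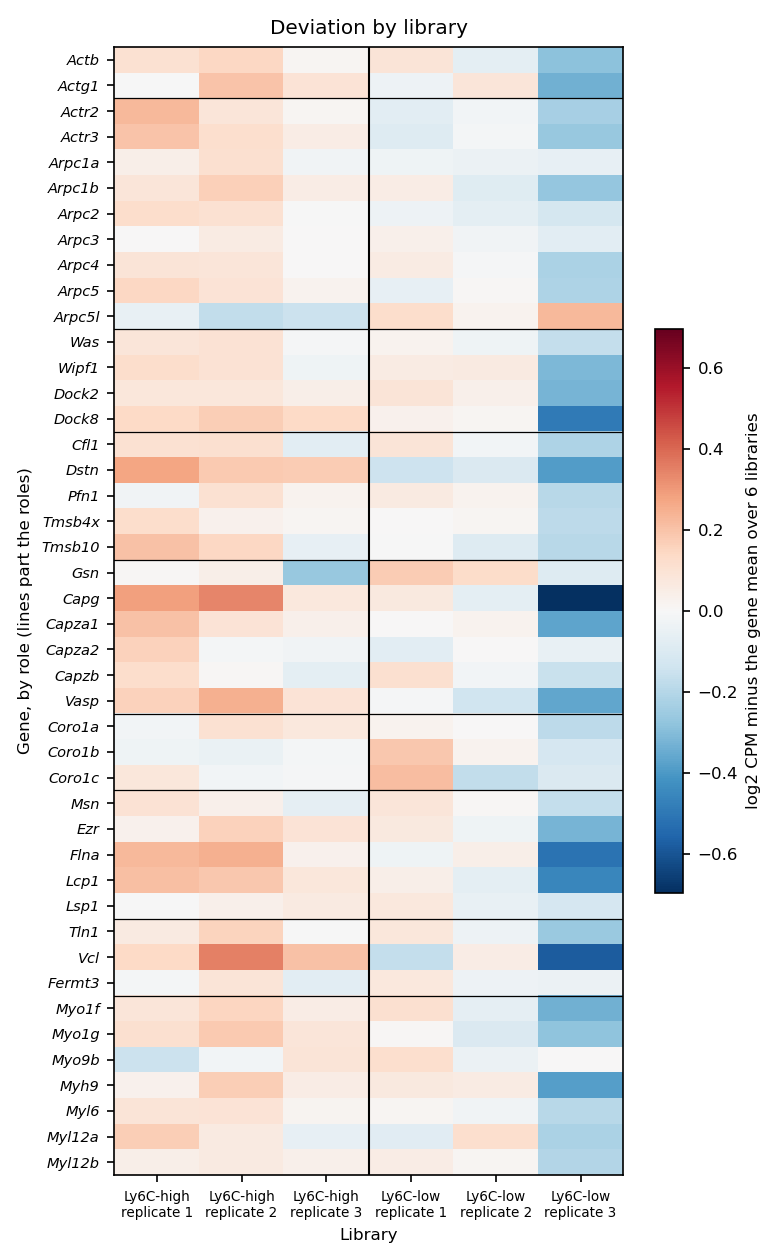
Deviation of each tested member's log2 CPM from its mean over the 6 libraries, with genes in rows by role, libraries in columns, and colour for the deviation. Ly6C-low replicate 3 is the lowest column for 38 of the 44 members, with a median of -0.22.

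Both cytoplasmic actins had log2 fold changes above 0, with groups that overlapped. Actb was at 14962, 15375 and 14040 CPM in Ly6C-high replicates 1, 2 and 3 and at 14801, 13255 and 11411 CPM in Ly6C-low replicates 1, 2 and 3. Only Ly6C-low replicates 2 and 3 were below the Ly6C-high range, and the log2 fold change of 0.17 (SE 0.12) had an adjusted p of 0.568. Actg1 was at 5098, 5866 and 5461 CPM against 4997, 5421 and 4057 CPM, with the lowest value again in Ly6C-low replicate 3. Its log2 fold change was 0.18 (SE 0.13, adjusted p = 0.551). Without Ly6C-low replicate 3 the values were 0.07 for Actb and 0.07 for Actg1. The share of Actb in the sum of both actins' TPM was 72.9% ± 1.62 in Ly6C-high and 73.1% ± 1.97 in Ly6C-low libraries (SD, n = 3), so the balance of the actins overlapped as well. Words of 31 bases shared with other genes, among them processed pseudogenes, made up 39.0% of those of Actg1, but pseudogenes with at least 100 shared words received 0.102% of the summed counts.

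In the Arp2/3 complex 8 of the 9 subunit genes had a log2 fold change above 0 (not Arpc1a and Arpc3 with library size alone). The median of the 9 was 0.15. Ly6C-high libraries were all above Ly6C-low libraries for 6 of the 9, Actr2, Actr3, Arpc1a, Arpc1b, Arpc2 and Arpc5, and all below for Arpc5l. Of all genes 10.3% were above and 10.9% below, and of the genes of at least 100 CPM 23.3% were above. In TPM the groups overlapped for all 6 of those subunits, with Arpc1a at 66.6 in Ly6C-high and 67.7 in Ly6C-low libraries. Arpc5l alone stood apart in TPM, lower in Ly6C-high. None passed the adjusted test. Actr3, which encodes ARP3, one of the actin-like subunits, was at 2345, 2219 and 2121 CPM in Ly6C-high and 1921, 2027 and 1704 CPM in Ly6C-low libraries. Its highest Ly6C-low library stood below its lowest Ly6C-high library, with a log2 fold change of 0.24 (SE 0.11, 95% interval 0.01 to 0.48, adjusted p = 0.337 by edgeR). Arpc5l is a less abundant alternative to the subunit encoded by Arpc5. It was at 25.9, 23.9 and 24.2 CPM in Ly6C-high and 29.2, 27.3 and 31.4 CPM in Ly6C-low libraries. Every Ly6C-low library was above every Ly6C-high library for this gene, opposite to the order in Actr3, with a log2 fold change of -0.25 (SE 0.10, 95% interval -0.47 to -0.03, adjusted p = 0.302). It was the only member highest in Ly6C-low replicate 3.

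The other subunits differed by less. Arpc5 was at 1597, 1541 and 1468 CPM against 1388, 1449 and 1244 CPM, so the groups did not overlap, with a log2 fold change of 0.17 (SE 0.10, adjusted p = 0.465). Actr2, which encodes ARP2, had a log2 fold change of 0.22 and Arpc1b of 0.20, with adjusted p of 0.374 and 0.430 by edgeR. Arpc2 was at 0.15, Arpc4 at 0.11, Arpc1a at 0.09 and Arpc3 at 0.04. In level, Actr3, Arpc2 (977 TPM), Arpc3 (942 TPM) and Arpc5 (926 TPM) stood above Arpc1b (765 TPM), Arpc4 (496 TPM) and Actr2 (389 TPM), although the proteins are parts of a single complex. The 9 genes summed to 5812 ± 142 TPM in Ly6C-high and 5562 ± 231 TPM in Ly6C-low libraries (SD, n = 3), and the groups overlapped on that scale. Of the words of Actr3 34.2% were shared with other genes, chiefly the pseudogene Gm8822, which received 28.0 estimated counts on average against 39771 for Actr3.

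The proteins that switch on Arp2/3 or Rac differed little. Wipf1 encodes WIP, the partner that stabilises WASP, and was at 659, 648 and 593 CPM in Ly6C-high and 629, 633 and 487 CPM in Ly6C-low libraries. The groups overlapped except for Ly6C-low replicate 3, and the log2 fold change was 0.12 (SE 0.12, adjusted p = 0.674), and 0.00 without that library. WASP itself, encoded by Was, had the log2 fold change 0.12 at a level of 105 TPM. Dock2, an exchange factor for Rac needed for neutrophil chemotaxis, was at 537, 536 and 522 CPM against 539, 521 and 405 CPM. Its groups overlapped, with a log2 fold change of 0.12 (SE 0.11, adjusted p = 0.662), and without Ly6C-low replicate 3 it was -0.00. Dock8, an exchange factor for Cdc42, was at 480, 491 and 480 CPM against 445, 440 and 310 CPM. All Ly6C-high libraries were above the Ly6C-low libraries, with Ly6C-low replicate 3 far below the rest, and the log2 fold change of 0.28 (SE 0.13, adjusted p = 0.359) was 0.12 without that library.

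Among the proteins that sever filaments or hold monomers, Dstn had the smallest p of all members. It encodes destrin, which with cofilin dissolves old filaments. Dstn was at 856, 803 and 799 CPM in Ly6C-high replicates 1, 2 and 3 and at 641, 659 and 540 CPM in Ly6C-low replicates 1, 2 and 3. The lowest Ly6C-high library was well above the highest Ly6C-low library. The log2 fold change was 0.42 (SE 0.10, 95% interval 0.19 to 0.65), with a raw p of 0.00194 and an adjusted p of 0.192 by edgeR's quasi-likelihood test. Under the alternatives the log2 fold change lay between 0.32 and 0.47 and the adjusted p between 0.0129 (DESeq2) and 0.567, and without Ly6C-low replicate 3 the change was 0.33 (adjusted p = 0.120). Dstn also did not overlap between the groups in TPM, at 502 ± 13.1 against 401 ± 34.8 (SD, n = 3).

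Its relative Cfl1, cofilin-1, was the more abundant of the pair at 1409 TPM. Cfl1 was at 1402, 1406 and 1238 CPM against 1385, 1286 and 1121 CPM, with overlapping groups and a log2 fold change of 0.09 (SE 0.11, adjusted p = 0.740). Tmsb4x was at 6517, 6096 and 6036 CPM against 5983, 6038 and 5261 CPM. Ly6C-low replicate 2 was level with Ly6C-high replicate 3, so the groups just overlapped, and the log2 fold change was 0.11 (SE 0.11, adjusted p = 0.677). Tmsb10, thymosin beta-10, had the log2 fold change 0.19 and Pfn1 0.07, with adjusted p of 0.410 and 0.815 by edgeR.

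Among the tested proteins at filament ends, Capg and Vasp had the largest log2 fold changes, and Gsn alone was below 0. Vasp encodes the protein that speeds elongation at filament tips, and was at 935, 994 and 892 CPM in Ly6C-high and 832, 760 and 650 CPM in Ly6C-low libraries. The groups did not overlap, and the log2 fold change was 0.33 (SE 0.11, adjusted p = 0.240). Leaving out Ly6C-low replicate 3 gave 0.23. Capza1, the alpha-1 subunit of capping protein, was at 1730, 1601 and 1540 CPM against 1505, 1525 and 1163 CPM. These groups also did not overlap, by a narrow margin between Ly6C-high replicate 3 and Ly6C-low replicate 2, and the log2 fold change was 0.22 (SE 0.12, adjusted p = 0.449), or 0.09 without Ly6C-low replicate 3. Most words of Capza1 (70.2%) were shared with other genes, the largest such percentage of the members. They were shared chiefly with the pseudogene Gm3608, which received 355 estimated counts on average against 29229 for Capza1.

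Capg, which encodes a capping protein of the gelsolin family, was at 202, 210 and 175 CPM against 174, 158 and 102 CPM, so Ly6C-high replicate 3 and Ly6C-low replicate 1 nearly met. Its log2 fold change was 0.43 (SE 0.18, adjusted p = 0.342), and 0.23 without Ly6C-low replicate 3. Gsn, gelsolin, which severs and caps filaments, was at 676, 692 and 559 CPM against 760, 735 and 631 CPM, with a log2 fold change of -0.14 (adjusted p = 0.615). The groups overlapped in CPM through Ly6C-low replicate 3, while in TPM Gsn was lower in every Ly6C-high library, at 307 ± 31.6 against 363 ± 26.0 (SD, n = 3). The other subunits of capping protein, Capza2 and Capzb, had log2 fold changes of 0.09 and 0.04.

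Coronins, which bind filaments and recruit both Arp2/3 and cofilin, had the smallest median of the roles at 0.03. Coro1a, the form of blood cells, was at 1738, 1900 and 1852 CPM in Ly6C-high and 1790, 1766 and 1555 CPM in Ly6C-low libraries. The groups overlapped, with a log2 fold change of 0.10 (SE 0.10, adjusted p = 0.684). Coro1b was at -0.07 and Coro1c at 0.03, and the sign of Coro1c was below 0 with library size alone and that of Coro1b above 0 without Ly6C-low replicate 1.

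Among the proteins that cross-link filaments or tie them to the membrane, L-plastin and filamin A differed most. Lcp1 was at 9468, 9329 and 8652 CPM in Ly6C-high and 8407, 7805 and 5969 CPM in Ly6C-low libraries. The groups did not overlap, and Ly6C-low replicate 3 was again far below the rest. The log2 fold change was 0.31 (SE 0.14, 95% interval 0.01 to 0.60, adjusted p = 0.338), and 0.17 without that library. Flna, filamin A, was at 4156, 4225 and 3624 CPM against 3480, 3660 and 2489 CPM, and only Ly6C-high replicate 3 and Ly6C-low replicate 2 crossed. Its log2 fold change was 0.32 (SE 0.15, adjusted p = 0.351), and 0.16 without Ly6C-low replicate 3. The linkers of filaments to the membrane, Ezr (ezrin) and Msn (moesin), had 0.18 and 0.05, and Lsp1, a leukocyte actin-binding protein, 0.06.

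Of the 3 linkers to integrins, Vcl had the largest value. Vcl, vinculin, reinforces the bond between talin and actin. It was at 193, 223 and 201 CPM in Ly6C-high replicates 1, 2 and 3 and at 156, 181 and 117 CPM in Ly6C-low replicates 1, 2 and 3. The groups did not overlap, although Ly6C-high replicate 1 and Ly6C-low replicate 2 lay close together. The log2 fold change was 0.44 (SE 0.14, 95% interval 0.12 to 0.76, adjusted p = 0.239 by edgeR), and 0.28 without Ly6C-low replicate 3. In TPM Vcl overlapped between the groups, and 25.3% of its words were shared with Ap3m1, so reads could be split between these genes. Tln1, talin-1, which activates integrins, was at 1517, 1620 and 1453 CPM against 1534, 1421 and 1214 CPM. Its groups overlapped through Ly6C-low replicate 1, and the log2 fold change was 0.14 (SE 0.11, adjusted p = 0.610). Fermt3, kindlin-3, the partner of talin in integrin activation in blood cells, had a log2 fold change of 0.00 (SE 0.09), with a 95% interval of -0.19 to 0.19.

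Of the 7 myosin genes 6 had a log2 fold change above 0 (not Myl12b with library size alone), and the median of the 7 was 0.14. Myl6, the essential light chain of non-muscle myosin II, was the most abundant at 1564 TPM. It was at 675, 679 and 644 CPM in Ly6C-high and 641, 624 and 555 CPM in Ly6C-low libraries. The groups did not overlap, by a margin of a few CPM, and the log2 fold change was 0.14 (SE 0.10, adjusted p = 0.558). Myo1g, a class I myosin of blood cells at the plasma membrane, was at 88.5, 93.2 and 86.9 CPM against 82.4, 76.5 and 67.5 CPM. All Ly6C-high libraries were above all Ly6C-low libraries, with a log2 fold change of 0.25 (SE 0.10, 95% interval 0.04 to 0.46, adjusted p = 0.291), and 0.17 without Ly6C-low replicate 3. Myo1f, another class I myosin, had 0.18, and Myh9, the heavy chain of non-muscle myosin IIA, 0.16. The regulatory light chains Myl12a and Myl12b had 0.11 and 0.09, and share 22.9% and 21.3% of their words with other genes, chiefly each other. Myo9b, an unconventional myosin, had -0.05. Without Ly6C-low replicate 3 the median of the myosins was 0.03, and the summed TPM of the group was 3802 ± 97.9 in Ly6C-high and 3756 ± 329 in Ly6C-low libraries (SD, n = 3).

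The Arp2/3, actin-binding and myosin groups had similar medians, at 0.15, 0.12 and 0.14. Their median deviations in Ly6C-low replicate 3 were -0.21, -0.21 and -0.22, so that library was low in all of them to a like degree, and without it the medians were 0.11, 0.04 and 0.03. Of the Arp2/3 genes 6 of 9 (66.7%) had Ly6C-high above Ly6C-low in CPM. Of the tested actin-binding genes 7 of 26 (26.9%) did, and of the myosins 2 of 7 (28.6%). Of all genes 10.3% were above in CPM, and of the genes of at least 100 CPM 23.3%. In TPM the counts were 0 of 9, 3 of 26 (11.5%) and 0 of 7. On that scale 4.36% of all genes and 8.18% of the genes of at least 100 CPM were above. The difference between the counts of the Arp2/3, actin-binding and myosin genes was not tested. The plot of fold change against level shows the members among all genes.

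**Figure D4:**
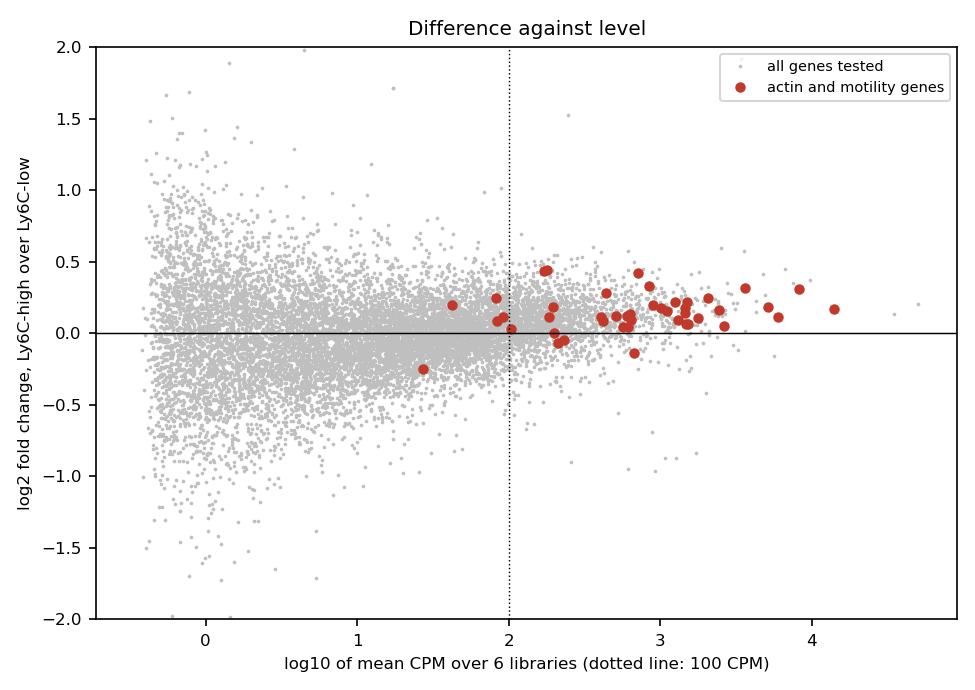
Log2 fold change of Ly6C-high over Ly6C-low against mean CPM on a log axis, with all 11405 tested genes in grey and the 44 members in red. The 16 genes outside -2 to 2 are not drawn. The members lie at the abundant end, 39 of them at a mean of at least 100 CPM, and between -0.25 and 0.44.

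Related members share a role, and the share of one gene in the summed TPM of a pair does not depend on scaling, so 12 such pairs were compared between the groups. For 3 of the 12 the groups did not overlap, and how often this holds for other pairs of genes was not counted. Cfl1 made up 73.9%, 74.8% and 72.8% of Cfl1 and Dstn in Ly6C-high replicates 1, 2 and 3 and 78.6%, 76.7% and 77.8% in Ly6C-low replicates 1, 2 and 3. Destrin was the smaller part of the pair in every library, and its part was larger in every Ly6C-high library than in any Ly6C-low library. The mean shares of Cfl1 were 73.9% ± 1.02 and 77.7% ± 0.934 (SD, n = 3). Arpc5 made up 97.1%, 97.6% and 97.2% of Arpc5 and Arpc5l against 96.3%, 97.1% and 96.2%. Ly6C-high replicate 1 and Ly6C-low replicate 2 nearly touched, and the means were 97.3% ± 0.256 and 96.5% ± 0.455. Dock2 made up 56.3%, 55.5% and 55.2% of Dock2 and Dock8 against 58.4%, 56.8% and 59.2%, with means of 55.7% ± 0.594 and 58.1% ± 1.24. The two-sided exact permutation test gave p = 0.1 for each of the 3, the smallest that 3 libraries against 3 allow, and 0.4 after Benjamini-Hochberg adjustment over the 12 pairs. None could therefore pass a threshold of 0.05.

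The other 9 pairs overlapped between the groups and show which member dominated. Vasp made up 99.9% of Vasp and Evl, Tmsb4x 98.9% of both thymosins, and Arpc1b 91.9% of Arpc1b and Arpc1a. Moesin made up 91.5% of moesin and ezrin (Msn and Ezr), Myo1f 91.1% of Myo1f and Myo1g, and Coro1a 87.3% of Coro1a and Coro1b. Capza1 made up 66.9% of both alpha subunits of capping protein, and Myl12a 9.72% of both regulatory light chains. The plot of pair shares gives every library.

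**Figure D5:**
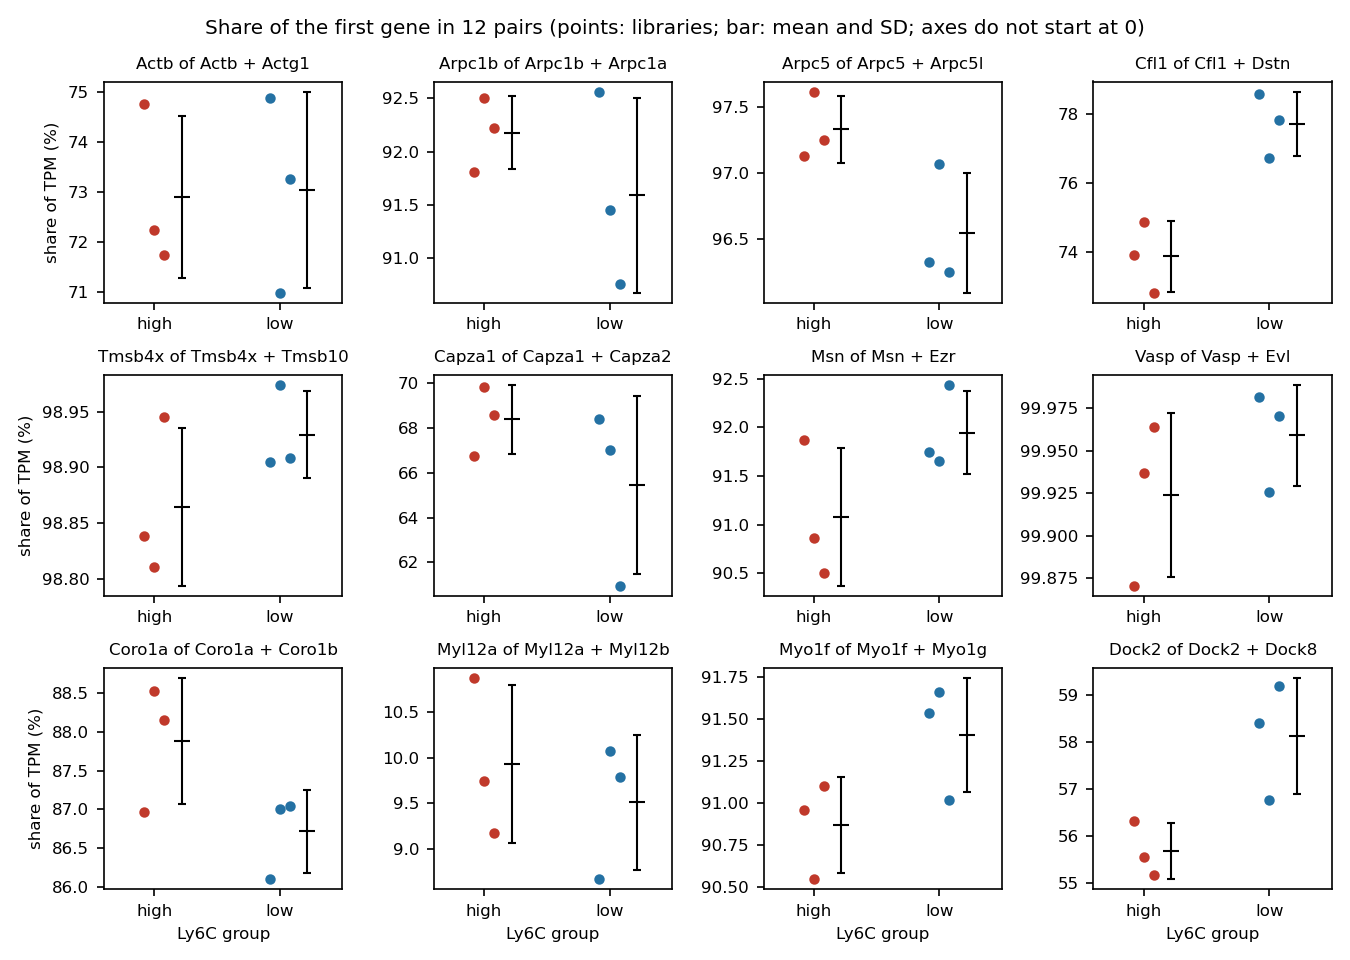
Share of the first gene in the summed TPM of each of the 12 pairs, in percent, with 1 point per library and colour for the sorted group. The groups do not overlap for Cfl1 of Cfl1 and Dstn, Arpc5 of Arpc5 and Arpc5l, and Dock2 of Dock2 and Dock8, with differences between means of -3.85, 0.785 and -2.45 percentage points.

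Some of the levels rest on transcripts that encode no protein. In coding transcripts alone the mean TPM differed by more than the spread between libraries for 12 of the 45 members. The largest part was in Myl12b, whose mean was 1317 TPM over all transcripts and 813 TPM over coding ones, since a transcript with a retained intron held 37.0% of its TPM in Ly6C-high and 38.6% in Ly6C-low libraries. Coro1b was at 204 and 146 TPM and Actr3 at 1096 and 924 TPM on these scales. The summed level of the Arp2/3 genes was 5341 TPM and that of the myosins 3217 TPM in coding transcripts.

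Another 86 genes of actin regulation, listed for their function, had differences of a size close to those of the members. Of the 84 that were tested 0 passed the adjusted threshold by edgeR, and at an unadjusted p under 0.05 there were 12 higher in Ly6C-high (14.3%) and 0 lower, against 6.92% higher among all genes and 15.6% among the abundant genes. DESeq2 and limma voom also called 0 of them, and edgeR without a filter called 3, Actn1, Daam1 and Lims1. Their median log2 fold change was 0.13, with 74 above 0, against 49.2% of all and 73.5% of abundant genes. In CPM 24 had Ly6C-high above Ly6C-low in every library (28.6%), against 10.3% of all genes and 23.3% of genes with a mean of at least 100 CPM. Ly6C-low replicate 3 was the lowest library for 57 of the 84 (67.9%), against 58.2% of the abundant genes. In TPM 9 of the 84 had Ly6C-high above Ly6C-low (10.7%), against 4.36% of all genes and 8.18% of the abundant genes. On that scale 3 had it below (3.57%), against 18.1% of all genes and 14% of the abundant genes. By role the medians were 0.16 for 12 exchange factors, 0.17 for 13 kinases and phosphatases and 0.15 for 11 formins and nucleation factors. They were 0.18 for 22 other actin-binding proteins, 0.12 for 10 adaptors of focal adhesions and 0.10 for 6 other myosins.

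The pathway genes with the smallest p were Myo5a, Lims1, Dock11, Rock1, Daam1, Plek, Add3, Ppp1r12a, Actn1 and Parvg. Myo5a, a myosin that carries cargo along actin, had a log2 fold change of 0.31 (adjusted p = 0.220 by edgeR). Rock1, a kinase that activates myosin II, had 0.25 (adjusted p = 0.239), and Ppp1r12a, the targeting subunit of the phosphatase that opposes it, 0.22 (adjusted p = 0.288). Lims1, an adaptor at integrin adhesions, had 0.48, the exchange factor Dock11 0.31, the formin Daam1 0.67 and the cross-linker Actn1 0.43. Plek, Add3 and Parvg had 0.30, 0.35 and 0.28. By level the leading genes were Arhgdib (2390 TPM), the GTPase Rac2 of blood cells (1248 TPM), Cap1 (1114 TPM), Gmfg (1025 TPM) and Zyx (890 TPM). Their log2 fold changes were 0.19, 0.16, 0.23, 0.07 and 0.05, none of which passed the adjusted test.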

How the data were processed

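RNA from 6 libraries, 3 of Ly6C-high and 3 of Ly6C-low neutrophils, was sequenced after poly(A) capture. Per the submitters' processing notes, the authors used kallisto and build GRCm39. The kallisto version, index and strand setting were not given in the sources used here, so reads of overlapping genes on opposite strands may not be told apart. The deposited tables gave estimated counts and TPM per transcript, per the file headers. Reads that fit several genes are divided between them by estimate.

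Transcripts were assigned to genes by identifier with GENCODE M21: 99.04% of 117486 matched, and 2 overlapping loci named Myl12b were summed. Estimated counts were rounded and tested in R 4.3.3 by edgeR 4.0.16 (TMM after filterByExpr, robust quasi-likelihood F test, Benjamini-Hochberg over 11405 genes, common biological coefficient of variation 13.7%). The step was tested on simulated counts. Intervals are 95%. Levels between genes use TPM, and differences use CPM. Pair shares were compared with a two-sided exact permutation test. Words of 31 bases shared between genes were counted in the transcript sequences, and upstream sequence came from RefSeq.

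The members and the lists of pathway and marker genes were chosen with earlier results of these data known. Values in every library are given for the most abundant member and the member with the smallest p in each role and for pairs whose groups did not overlap. From the pathway list the 10 with the smallest p and the 5 most abundant are named, and from each marker list the 2 most abundant. The median of 1 role of the pathway list is not reported here. Capg, Gsn and Flna were given in full after their values were seen. Alternatives were the replicate block, DESeq2 size factors, library size alone, no filter, a mean count of 10, DESeq2 1.42.0, limma 3.58.1 voom, length-scaled TPM, protein-coding genes alone, coding transcripts alone, estimated counts in place of TPM for the pair shares, and each library left out. Myl12b from 1 locus, the overlap of groups without Ly6C-low replicate 3 or in TPM, and the background of genes with a mean of at least 100 CPM were added after seeing the data.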

Additional observations from a re-analysis of the deposited data

How the results depend on the processing

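No direction of a group median changed. With DESeq2 size factors, a mean count of 10, voom, protein-coding genes alone or Myl12b from 1 locus, the counts of calls stayed within 1.5 times and the medians within the spread between libraries. Genes past an adjusted p of 0.05 were 4 in the edgeR test and 61 with the replicate block, 8 with library size alone, 438 without a filter, 126 with DESeq2, 2 with length-scaled TPM and 2 to 21 with a library left out, 21 without Ly6C-low replicate 3. Members past it were 0, against 3 without a filter (Dstn, adjusted p = 0.0191, Capg, 0.00820, and Vcl, 0.00659, by edgeR) and 1 with DESeq2 (Dstn). Over all alternatives the adjusted p of Capg reached 0.667 and that of Vcl 0.588. The block called 0 members. Whether a number marks the same mouse in both groups is not said in the labels, and the data did not settle it: deviations of same-numbered libraries correlated at 0.24, -0.04 and 0.24, and replicates 1 and 3 of Ly6C-high correlated best with their own number but replicate 2 with Ly6C-low replicate 1 (0.11). With library size alone the medians were 0.0267 for the members, 0.0457 for Arp2/3 and 0.0311 for myosins. With a library left out they lay between 0.0594 and 0.173 for the members, 0.109 and 0.191 for Arp2/3, 0.0442 and 0.168 for actin-binding genes and 0.0318 and 0.188 for myosins, each lowest without Ly6C-low replicate 3.

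Signs near 0 turned, and the cause was not tested. With library size alone log2 fold changes were -0.0214 for Arpc1a, -0.0635 for Arpc3, -0.00913 for Cfl1, -0.0360 for Pfn1, -0.0207 for Capza2, -0.0638 for Capzb, -0.000569 for Coro1a, -0.0754 for Coro1c, -0.0550 for Msn, -0.0419 for Lsp1, -0.105 for Fermt3 and -0.0142 for Myl12b. Fermt3 was at -0.00879 without a filter and -0.000459 in protein-coding genes alone, and Myo9b at 0.00766 with length-scaled TPM. With a library left out, the range spanned 0 for Capzb (-0.0301 to 0.105), Coro1b (-0.146 to 0.00764), Coro1c (-0.0457 to 0.149), Dock2 (-0.00115 to 0.196), Fermt3 (-0.0474 to 0.0393), Msn (-0.0237 to 0.0998), Myo9b (-0.109 to 0.0105) and Pfn1 (-0.0135 to 0.111). So did the difference in the share of Actb (-1.17 to 0.783 percentage points) and of Myl12a (-0.0502 to 0.794). Members at an unadjusted p under 0.05, 8 in the edgeR test, were 5 with library size alone, 5 without Ly6C-high replicate 1 and 2 without Ly6C-high replicate 2. Depth did not keep any member but Evl from being tested.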
